A study of Mus musculus with 7 samples.

Results

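Transcripts of 33 genes of cholesterol synthesis and transport were followed in splenic Tregs of aged and young mice. The genes were listed by symbol, covering the mevalonate and sterol enzymes, the SREBP control genes, and the LXR, efflux, storage and transport genes. Each symbol was found once among the 25469 genes of the deposited table, and all 33 passed the filter on low counts that left 13904 genes for testing. The libraries number 7 in all. The libraries came from CD4+CD25+ spleen cells of wild-type mice, which the study's methods describe as male C57BL/6, isolated with magnetic beads. There were 3 biological replicates of 18 months (aged) and 4 of 8 weeks (young). No treatment, transgene or surgery is named for either age, and the labels do not say whether a replicate held cells of a single mouse or of a pool. If replicates shared animals or cultures, the p-values would measure technical spread alone.

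Cells make cholesterol from acetyl-CoA. HMG-CoA synthase, mevalonate kinase and the decarboxylase of the mevalonate pathway build isoprenoid units, squalene is assembled from these, and a series of sterol enzymes turns squalene into cholesterol. The transcription factors SREBP-1 and SREBP-2 raise these genes when the endoplasmic reticulum is short of cholesterol, escorted by Scap and held back by the Insig proteins. In the opposite state, oxysterols bind the nuclear receptors LXR-alpha and LXR-beta, which raise the efflux pumps Abca1 and Abcg1. Cholesterol taken up from outside is freed in the lysosome by the acid lipase Lipa, leaves it through Npc2 and Npc1, and is stored as ester by the acyltransferases Soat1 and Soat2. In T cells, mevalonate products and membrane cholesterol are used for growth, signalling and the suppressive function of Tregs.

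The libraries held 10734234 to 13649310 gene counts, with every young library deeper than every aged library. A further 13.1% to 20.9% of the reads lay on no gene or on several. Levels are given as counts scaled to library size (CPM), with TMM factors that adjust for differences in composition. Foxp3, the lineage factor of Tregs, was at 447 to 622 CPM in aged and 394 to 518 CPM in young libraries, and the summed level of 7 Treg markers was 2654 to 3145 CPM against 1902 to 3129 CPM. None of the 7 was called by edgeR, 4 had an unadjusted p under 0.05, and DESeq2 and limma voom called 1 each. Il2ra, which encodes CD25, was at 327 to 481 CPM in aged and 471 to 684 CPM in young libraries, and was not called (log2 fold change -0.61, SE 0.188, adjusted p = 0.0588). Cd4 was at 434 to 446 CPM against 493 to 633 CPM (log2 fold change -0.30, adjusted p = 0.117). The general T cell gene Cd3e was higher in aged Tregs, at 263 to 341 CPM against 212 to 242 CPM (log2 fold change 0.46, adjusted p = 0.0301), and Cd5, another T cell gene, was lower, at 291 to 347 CPM against 396 to 479 CPM (log2 fold change -0.42, adjusted p = 0.0422). In the fits that left out a library, Cd3e was called in 2 of 7 and Cd5 in 1 of 7. Transcripts of other cells were present in each library. The 6 B cell genes summed to 834 to 1547 CPM in aged and 1254 to 1895 CPM in young libraries. The 5 T cell genes summed to 1644 to 1817 CPM and 1667 to 2105 CPM. In aged libraries, gene means were 136 to 272 CPM for B cell and 295 to 441 CPM for T cell genes. In young libraries they were 118 to 357 CPM and 223 to 545 CPM, so the ranges overlapped. The part of B cells in the levels of the cholesterol genes was not tested. Aged replicate 1 stood apart by its neutrophil genes, with 5286 CPM summed over 8 genes against 261 to 1882 CPM in the other libraries. Young replicate 2 held the most plasma cell transcripts, 1831 CPM over 4 genes. The 9 erythroid genes summed to 12418 to 157605 CPM and were lowest in aged replicate 1 and young replicate 2.

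Of the 33 genes, 4 were called with an adjusted p under 0.05 from edgeR's quasi-likelihood test, 3 lower and 1 higher in aged Tregs. These were Hmgcs1, Mvd and Npc1 on the lower side and Soat2 on the higher side. The 4 genes are 12.1% of the list, while 16.7% of all genes tested were called, 9.8% higher and 6.94% lower. With DESeq2, 6 of the 33 were called beside 16.9% of genes. The members' share thus lay below or above that of all genes depending on the test. With no filter on low counts, 4 of the 33 were called beside 8.72% of 25469 genes. Those genes include the low ones that the filter removes, while all 33 members pass it, so these 2 shares have unlike bases. Another 6 members had an unadjusted p under 0.05 without passing the adjustment, for a total of 10 of 33, beside 4540 of the 13904 genes tested. The groups did not overlap in 12 of the 33, or 36.4%, against 29.9% of all genes tested. The median log2 fold change was -0.03 over the members and 0.02 over all genes tested, with 18 members below 0 and 15 above. The calls of the list moved with the libraries used. Without aged replicate 1, 7 members were called, namely the 4 above with Insig2, Lipa and Srebf2. Without aged replicate 3, Soat2 alone was called. Abca1, Npc1 and Soat2 were called without aged replicate 2. Without young replicate 1, 2, 3 or 4, the called members were Npc1 and Soat2. With the GC content and length trends of each library removed, 5 members were called (4 lower), although the split over all genes turned from 1362 higher and 965 lower to 1202 higher and 1485 lower.

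**Figure D1:**
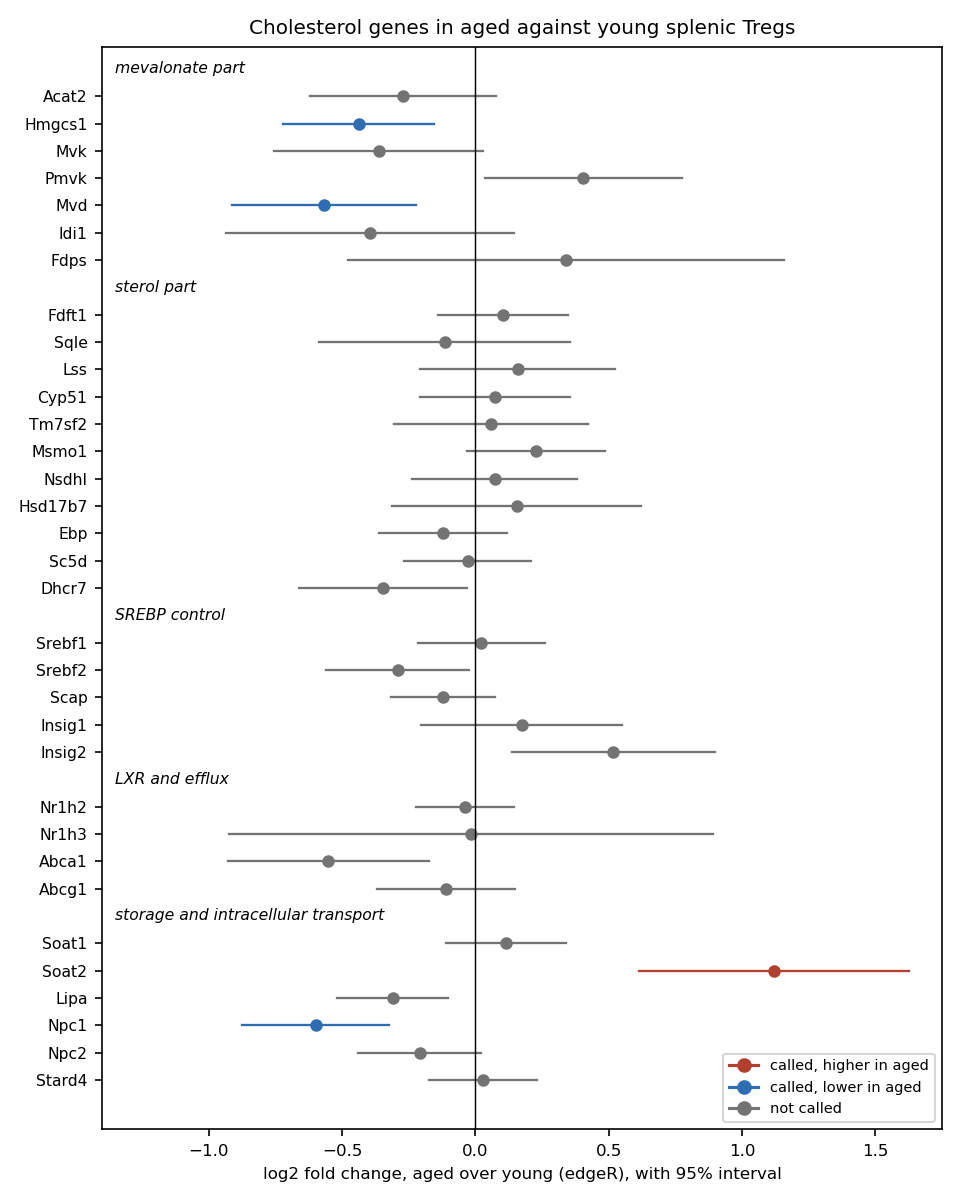
Log2 fold change of each of the 33 genes in aged over young Tregs (horizontal axis, edgeR, 3 against 4 libraries), grouped by role. Points are estimates and bars 95% intervals, colored where the adjusted p was under 0.05: Hmgcs1, Mvd and Npc1 lie left of 0, Soat2 lies right of 0 at 1.12, and the sterol enzymes lie between -0.35 and 0.23.

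The early enzymes were examined first. The mevalonate part comprises 7 genes, of which 2 were called, both lower, beside 16.7% called and 6.94% lower among all genes tested. A negative log2 fold change was found for 5 of the 7 (median -0.36), and for 6674 of the 13904 genes tested. Hmgcs1 (ENSMUSG00000093930, chromosome 13, 119690379 to 119708260 of GRCm38) encodes the cytosolic HMG-CoA synthase, which makes HMG-CoA from acetoacetyl-CoA. The aged libraries (replicates 1 to 3, in this order throughout) held 25.7, 20.8 and 19.7 CPM, and the young libraries (replicates 1 to 4) 32.0, 29.3, 28.6 and 29.7 CPM. Each aged library lay below each young library, with aged replicate 1 closest to the young range. The means were 22.1 ± 3.20 (SD, n = 3) and 29.9 ± 1.47 CPM (SD, n = 4), and the log2 fold change of -0.44 had an SE of 0.124 and an adjusted p of 0.0446. The call was kept in 1 of the 7 fits that left out a library, the fit without aged replicate 1 (adjusted p = 0.0123), and the adjusted p in the other such fits ran up to 0.141. The log2 fold change itself stayed between -0.57 and -0.36. Of 9 other alternatives, 5 kept the call, and it was missed with library size only (adjusted p = 0.0637), no filter (0.0578), at least 10 counts in every library (0.0509) and the replicate block (0.138). Of the exon length of Hmgcs1, 12.1% overlaps Gm48342, and reads in that stretch would be assigned to neither gene.

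Mvd (ENSMUSG00000006517, chromosome 8, 122433601 to 122443422) encodes mevalonate diphosphate decarboxylase, which yields isopentenyl diphosphate. It was at 20.6, 16.9 and 16.3 CPM in the aged libraries and at 26.2, 32.1, 23.4 and 24.7 CPM in the young libraries. Again no aged value reached the young range. The means of 17.9 ± 2.34 (SD, n = 3) and 26.6 ± 3.84 CPM (SD, n = 4) differed by -0.57 on the log2 scale (SE 0.151, adjusted p = 0.0364). It too kept its call in 1 of the 7 fits, again that without aged replicate 1 (adjusted p = 0.0219), and reached 0.118 in the others. Its log2 fold change ran from -0.68 to -0.46 over those fits.

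The promoters of Hmgcs1 and Mvd are given because these are the synthesis genes that were called, and SREBP with its partner NF-Y is known to act on promoters of this pathway. The sequences are from RefSeq on GRCm38.p6, 250 bases before to 50 after the annotated start, written 5′ to 3′ on the strand of the gene. The Hmgcs1 window is chr13:119690101-119690400, plus strand, and the Mvd window is chr8:122443373-122443672, minus strand. Capitals mark the core of a sterol regulatory element, TCACNCCAC, and the NF-Y box CCAAT on either strand.
Hmgcs1: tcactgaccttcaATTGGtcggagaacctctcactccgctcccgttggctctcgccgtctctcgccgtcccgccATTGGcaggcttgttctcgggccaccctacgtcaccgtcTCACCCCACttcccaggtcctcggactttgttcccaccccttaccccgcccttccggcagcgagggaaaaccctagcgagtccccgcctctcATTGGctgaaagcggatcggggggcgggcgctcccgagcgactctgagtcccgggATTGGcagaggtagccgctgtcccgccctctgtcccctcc
Mvd: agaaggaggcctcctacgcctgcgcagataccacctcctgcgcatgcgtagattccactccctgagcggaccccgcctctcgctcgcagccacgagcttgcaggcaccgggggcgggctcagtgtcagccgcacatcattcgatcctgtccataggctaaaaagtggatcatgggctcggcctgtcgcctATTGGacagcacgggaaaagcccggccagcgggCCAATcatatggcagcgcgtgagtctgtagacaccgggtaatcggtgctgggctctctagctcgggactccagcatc
In the Hmgcs1 window, the TCACNCCAC match begins 137 bases before the start and 4 NF-Y boxes were found. The Mvd window held 2 NF-Y boxes and no match to TCACNCCAC. Promoters of 26 of the 33 members were in the table, and both strands were searched. TCACNCCAC occurred in 1 of these 26 (3.85%) and in 1.44% of 27025 genes. The NF-Y box was present in 21 of 26 (80.8%), against 41.1% of the genes, and the Sp1 box GGGCGG in 23 of 26 (88.5%), against 38.2%. The 27025 genes were not limited to those that passed the filter on low counts, as all members did, nor matched for base content. Whether these shares are particular to cholesterol genes was not tested. None of these matches overlapped a match to another motif, and a gene with several promoters was counted once if any of them matched. Fdps, Fdft1, Sqle, Abcg1, Soat2, Npc1 and Stard4 had no entry. A match of letters is a description of the window and was not tested against the change with age.

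The other mevalonate genes were not called. Pmvk, the phosphomevalonate kinase, differed from its neighbours in direction, at 19.7, 20.04 and 28.2 CPM in aged and 14.9, 18.1, 18.8 and 16.6 CPM in young libraries. All aged values lay above the young ones, by a narrow margin except in aged replicate 3, and the change was not called (log2 fold change 0.41, SE 0.161, adjusted p = 0.121). Mvk, mevalonate kinase, was at 7.25, 6.95 and 7.77 CPM against 7.60, 11.1, 9.08 and 9.89 CPM, where young replicate 1 lay inside the aged range (log2 fold change -0.36, adjusted p = 0.182). Acat2, the thiolase that supplies acetoacetyl-CoA, had a log2 fold change of -0.27 (95% interval -0.62 to 0.08, adjusted p = 0.255). For Idi1, the isopentenyl diphosphate isomerase, it was -0.40 (95% interval -0.94 to 0.14, adjusted p = 0.284), and aged replicate 1 at 6.03 CPM lay within the young values of 5.02 to 6.38 CPM. Fdps, farnesyl diphosphate synthase, was read only 10 to 19 times in a library, and its log2 fold change of 0.34 has an interval from -0.48 to 1.16. The counts of 3 of these genes are uncertain, because 50-base stretches of their longest coding transcript recur in transcripts of other genes. This held for 86.4% of the stretches of Fdps (Gm43738 and others), 45.9% of Acat2 (Acat3 and Tcp1) and 30.5% of Idi1 (Gm13502 and others), and reads that align to several places would be lost from the count.

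The sterol part, from the making of squalene to cholesterol, held 11 genes, and none was called by edgeR, DESeq2 or limma voom. Their log2 fold changes ran from -0.35 to 0.23 with a median of 0.07, 4 below and 7 above 0, and the smallest adjusted p was 0.12. Dhcr7 was the 1 gene with an unadjusted p under 0.05. Fdft1, squalene synthase, had a log2 fold change of 0.10 (95% interval -0.14 to 0.35), and 30.7% of its 50-base stretches recur in Ctsb and Gm6781. Sqle, squalene epoxidase, a rate-limiting step, was at 19.5, 10.4 and 12.6 CPM in aged and 14.9, 15.6, 14.5 and 16.3 CPM in young libraries. Aged replicate 1 was thus above all young libraries and the other aged libraries below them. The log2 fold change of Sqle was -0.11 (95% interval -0.59 to 0.36), and -0.42 without aged replicate 1. Lss, lanosterol synthase, and Hsd17b7, the 3-keto reductase, were also highest in aged replicate 1, at 19.4 and 7.69 CPM, against ranges over the other 6 libraries of 12.9 to 15.5 and 4.93 to 6.16 CPM. The log2 fold change of Lss turned from 0.16 to -0.03 and that of Hsd17b7 from 0.16 to -0.06 without that library. Aged replicate 1 is the library with the highest sum of neutrophil genes and the lowest erythroid sum of the aged libraries. The part of either in these levels was not tested.

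None of the remaining sterol enzymes was called, although the ages did not overlap for Msmo1 and Dhcr7. Cyp51, the lanosterol demethylase, had a log2 fold change of 0.07 (95% interval -0.21 to 0.36). Tm7sf2, a sterol C14 reductase, had one of 0.06 (95% interval -0.31 to 0.42), and Nsdhl, the sterol dehydrogenase of the demethylation complex, one of 0.07 (95% interval -0.24 to 0.38). Msmo1, the C4 methyl oxidase, was at 17.4, 17.4 and 18.2 CPM in aged and 13.6, 16.2, 15.5 and 15.1 CPM in young libraries, so each aged value was above each young value (log2 fold change 0.23, adjusted p = 0.203). Ebp, the sterol isomerase, had a log2 fold change of -0.12 (95% interval -0.36 to 0.12). Sc5d, the C5 desaturase, was the most even of these enzymes, at 22.8 to 26.0 CPM in aged and 23.7 to 26.1 CPM in young libraries (log2 fold change -0.03, 95% interval -0.27 to 0.21). Dhcr7, which carries out the last reduction to cholesterol, was at 27.9, 29.5 and 20.9 CPM against 33.8, 35.8, 30.9 and 32.3 CPM. Each aged value was below each young value, yet the call was missed (log2 fold change -0.35, SE 0.138, adjusted p = 0.12).

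**Figure D2:**
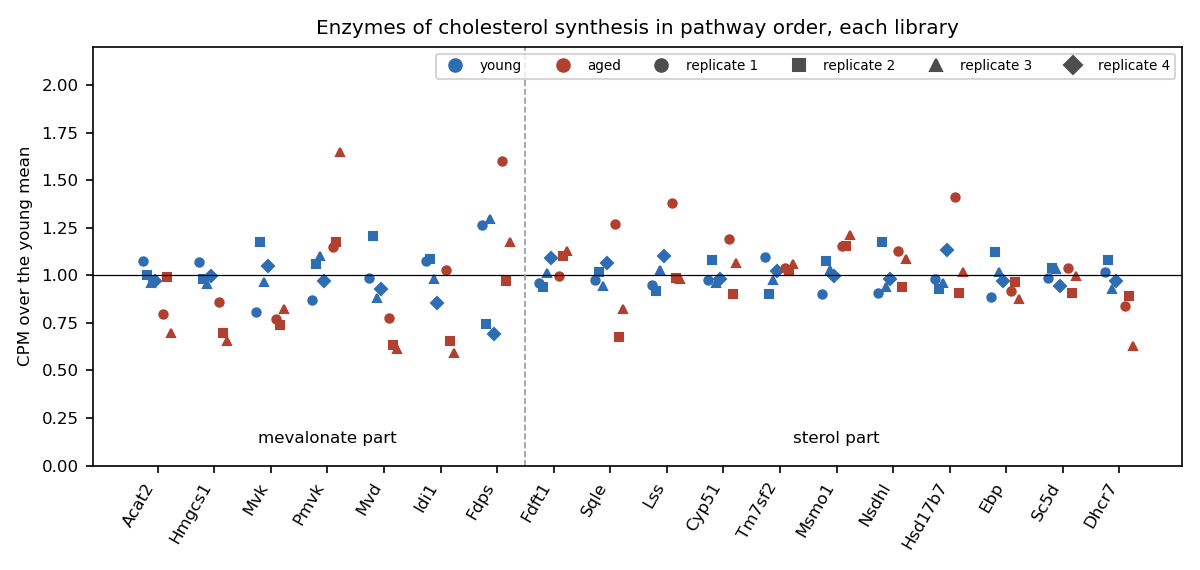
CPM of each synthesis enzyme in each library divided by the mean of the 4 young libraries (vertical axis), with genes in pathway order. Hmgcs1, Mvd and Dhcr7 have all 3 aged libraries below all young ones, and Pmvk and Msmo1 have them above. Of these, Hmgcs1 and Mvd were called, and no sterol enzyme was. Aged replicate 1 is the highest point for Sqle, Lss and Hsd17b7.

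Next, the control genes of SREBP were compared, and none of the 5 was called by edgeR, DESeq2 or limma voom, with 2 at an unadjusted p under 0.05 (Srebf2 and Insig2). Srebf2 (chromosome 15, 82147181 to 82205379), which encodes SREBP-2, the main activator of cholesterol synthesis, was at 202, 150 and 171 CPM in aged and 226, 206, 206 and 215 CPM in young libraries. The groups did not overlap, with aged replicate 1 just under the lowest young library. Srebf2 changed by -0.29 on the log2 scale (SE 0.118, adjusted p = 0.126). Leaving out aged replicate 1 gave -0.41 and a call (adjusted p = 0.0276). Srebf1, which encodes SREBP-1 and acts mostly on fatty acid genes, was at 84.4 to 104 CPM in aged and 85.6 to 95.01 CPM in young libraries (log2 fold change 0.02, 95% interval -0.21 to 0.26). Scap, the escort of SREBP, had a log2 fold change of -0.12 (95% interval -0.32 to 0.07). The Insig genes encode the proteins that retain Scap in the endoplasmic reticulum. Insig2 (chromosome 1, 121304353 to 121332589) was at 17.8, 22.6 and 25.5 CPM in aged against 14.4, 17.5, 16.7 and 12.7 CPM in young libraries. Aged replicate 1 exceeded the highest young library by little, and the other aged libraries lay well above. Insig2 changed by 0.52 on the log2 scale (SE 0.167, adjusted p = 0.067), and by 0.64 with a call when aged replicate 1 was left out (adjusted p = 0.0278). Insig1, itself a target of SREBP, was at 25.8, 17.4 and 26.8 CPM against 18.6 to 22.6 CPM in the young libraries. Aged replicate 2 was below and the others above the young range (log2 fold change 0.17, 95% interval -0.20 to 0.55).

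Among the LXR and efflux genes, again none of 4 was called by edgeR or limma voom, while DESeq2 called 1, Abca1, which also had the 1 unadjusted p under 0.05. All 4 log2 fold changes were below 0, as were those of 6674 of the 13904 genes tested. Those of Nr1h2 (-0.04) and Nr1h3 (-0.02) lay near 0. Abca1 (ENSMUSG00000015243, chromosome 4, 53030787 to 53159895), the pump that loads cholesterol onto apolipoproteins, was at 32.2, 46.5 and 40.1 CPM in aged and 72.9, 52.3, 55.5 and 51.7 CPM in young libraries. The groups did not overlap, and young replicate 1 was far above the other young libraries. The means were 39.6 ± 7.16 (SD, n = 3) and 58.1 ± 10.01 CPM (SD, n = 4), a difference of -0.55 on the log2 scale (SE 0.165, adjusted p = 0.0533). Abca1 was called in 1 of 7 fits without a library and in 4 of 9 other alternatives, with adjusted p-values from 0.0156 to 0.181 in the latter. The sister pump Abcg1 had a log2 fold change of -0.11 (95% interval -0.37 to 0.15). Nr1h2, which encodes LXR-beta, was steady, at 79.9 to 86.1 CPM in aged and 80.7 to 88.3 CPM in young libraries (log2 fold change -0.04, 95% interval -0.22 to 0.14). Nr1h3, which encodes LXR-alpha and is known from macrophages, was the most variable of the list. It was at 4.28, 7.45 and 15.1 CPM in aged and 8.30, 10.7, 6.08 and 10.97 CPM in young libraries, with an interval of the log2 fold change from -0.92 to 0.89. The summed level of 14 macrophage or monocyte markers in the same libraries was 652, 501 and 691 CPM in aged and 547, 597, 645 and 625 CPM in young Tregs, which is a different order, and their part in the Nr1h3 level was not tested.

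Promoters of Abca1 and Srebf1 are shown because they alone among the 26 members with a promoter held a match to an LXR element, searched as 2 copies of GGTNA with 5 bases between on either strand. Of 27025 genes, 0.818% held such a match. The Abca1 window is chr4:53159846-53160145, minus strand. Srebf1 has 3 windows in the table, and the match lies in chr11:60210422-60210721, minus strand. Both are RefSeq sequences on GRCm38.p6, and capitals mark the match.
Abca1: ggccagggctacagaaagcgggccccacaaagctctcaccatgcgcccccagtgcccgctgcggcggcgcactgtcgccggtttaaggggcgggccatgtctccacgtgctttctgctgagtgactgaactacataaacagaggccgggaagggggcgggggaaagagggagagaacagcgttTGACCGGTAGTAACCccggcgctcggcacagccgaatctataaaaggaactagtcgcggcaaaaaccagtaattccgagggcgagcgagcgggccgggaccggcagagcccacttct
Srebf1: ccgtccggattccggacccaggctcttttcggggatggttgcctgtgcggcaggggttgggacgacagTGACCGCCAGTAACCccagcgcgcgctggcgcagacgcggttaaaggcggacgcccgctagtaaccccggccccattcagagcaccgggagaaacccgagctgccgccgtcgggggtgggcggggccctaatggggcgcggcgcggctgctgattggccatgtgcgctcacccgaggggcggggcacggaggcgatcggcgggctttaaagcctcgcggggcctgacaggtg
The match begins 67 bases before the start in Abca1 and 182 bases before it in Srebf1. The log2 fold changes of Abca1 and Srebf1 were -0.55 and 0.02, and neither gene was called.

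Of the 6 genes of storage and intracellular transport, 1 was higher and 1 lower, beside 9.8% higher and 6.94% lower among all genes tested. Soat2 (ENSMUSG00000023045, chromosome 15, 102150526 to 102163469) encodes the acyl-CoA cholesterol acyltransferase known from liver and intestine, which esterifies cholesterol for storage. It was at 5.50, 6.65 and 4.30 CPM in aged and 2.53, 2.59, 2.13 and 2.80 CPM in young libraries. Every aged library was above every young one, and the lowest aged value was well clear of the young range. The means were 5.49 ± 1.17 (SD, n = 3) and 2.51 ± 0.278 CPM (SD, n = 4), a 2.18-fold difference (log2 fold change 1.12, SE 0.221, adjusted p = 0.0128). These values rest on 46 to 66 counts in an aged and 27 to 39 in a young library. Soat2 was called in all 7 fits that left out a library, with log2 fold changes of 0.96 to 1.27. Soat1, the widely expressed sister enzyme, was at 46.8, 55.4 and 52.7 CPM against 50.5, 44.4, 50.8 and 44.9 CPM, and its log2 fold change of 0.12 (95% interval -0.11 to 0.34) was not called. Per kb of exon, Soat2 was at 1.14 ± 0.126 in young and 2.48 ± 0.529 in aged Tregs, and Soat1 at 4.87 ± 0.355 and 5.27 ± 0.447. Soat2 thus remained below Soat1 at both ages.

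Npc1 (ENSMUSG00000024413, chromosome 18, 12189692 to 12236400) encodes the lysosomal membrane protein that exports cholesterol. It was at 37.4, 33.2 and 31.3 CPM in aged and 59.5, 46.1, 52.8 and 47.5 CPM in young libraries. Every aged library was below every young library. The means of 34.0 ± 3.13 (SD, n = 3) and 51.5 ± 6.08 CPM (SD, n = 4) differed by -0.60 on the log2 scale (SE 0.12, adjusted p = 0.0135). Npc1 was called in 6 of 7 fits that left out a library, and the adjusted p was 0.0528 without aged replicate 3. Npc2, the soluble partner that hands cholesterol to Npc1, was at 227, 216 and 227 CPM against 236, 287, 248 and 260 CPM. The groups did not overlap, but the difference was not called (log2 fold change -0.21, SE 0.101, adjusted p = 0.193). Lipa (chromosome 19, 34492318 to 34527474), the acid lipase, was at 67.0, 59.8 and 58.1 CPM in aged and 78.2, 79.3, 69.9 and 78.3 CPM in young libraries. All aged values were lower, and Lipa narrowly missed the threshold (log2 fold change -0.31, SE 0.0915, adjusted p = 0.0511). It was called in 1 of 7 fits without a library and in 3 of 9 other alternatives, with adjusted p-values from 0.0342 to 0.184. Stard4, a cytosolic sterol carrier, was nearly constant at 34.2 to 34.9 CPM in aged and 31.8 to 35.1 CPM in young libraries (log2 fold change 0.03, 95% interval -0.17 to 0.23).

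**Figure D3:**
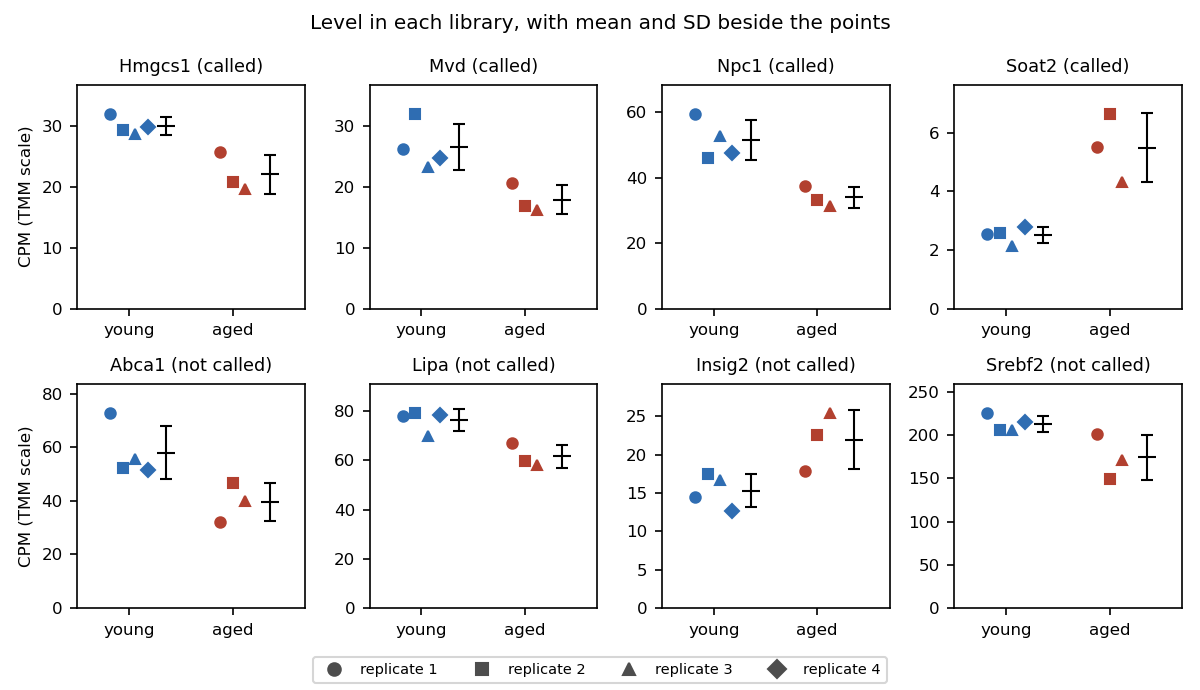
CPM (TMM scale, vertical axis from 0) of the 4 called genes and of 4 genes that were not called, in each young and aged library, with mean and SD beside the points. The 8 genes are taken from the 12 of 33 members whose groups did not overlap, beside 29.9% of all genes tested without overlap. The separation in every panel thus follows from the choice of genes. The aged points are higher for Soat2 and Insig2, and also for Pmvk and Msmo1, which did not overlap either and are not shown.

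Npc1, Npc2, Lipa and Abca1 are also abundant in macrophages and dendritic cells, whose transcripts were read in the isolates. Of 14 macrophage or monocyte markers, 3 were lower in aged Tregs (Csf1r, Adgre1 and Mertk), 2 were higher (Cd14 and Axl) and 9 were not called. Csf1r was at 33.1, 40.6 and 54.4 CPM in aged and 88.0 to 95.01 CPM in young libraries. The summed level of the list was 501 to 691 CPM in aged and 547 to 645 CPM in young libraries, and no marker was at 0 in any library. Of 7 dendritic cell markers, 3 were lower (Clec9a, Siglech and Cd209a) and 1 was higher (Zbtb46), with sums of 41.9 to 63.4 CPM against 60.1 to 79.4 CPM. Cd209a was at 0 in aged replicate 1. The part of these cells in the levels of the cholesterol genes was not tested. In RNA of a whole isolate, fewer cells of a type and less RNA per cell cannot be told apart. Of 8 neutrophil markers, 4 were higher and none was lower, and 2 were called without aged replicate 1. The list had sums of 680 to 5286 CPM in aged and 261 to 934 CPM in young libraries. None of the 6 cell cycle genes was called by edgeR, DESeq2 or limma voom, nor had an unadjusted p under 0.05, and their sums were 731 to 1103 CPM and 558 to 1397 CPM. No plasma cell (4 genes) or erythroid (9) marker was called by edgeR, DESeq2 or limma voom, and none had an unadjusted p under 0.05. Of 6 B cell markers, 4 had a log2 fold change below 0 and 2 above, with a median of -0.45. Of these 6, edgeR called none, with 2 at an unadjusted p under 0.05, DESeq2 called 2 and limma voom 1. In the platelet list 1 of 4 was called by edgeR, Treml1, which was higher.

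**Figure D4:**
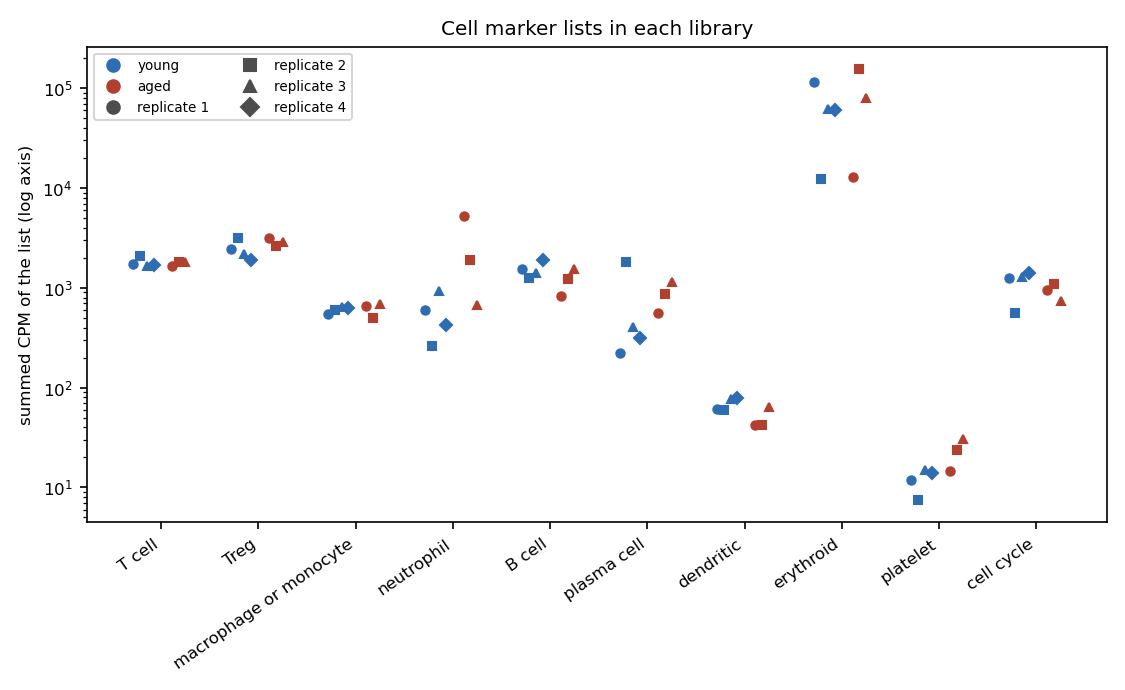
Summed CPM (vertical log axis) of each list of cell markers in each library, by age and replicate. The macrophage sums of both ages overlap, at 501 to 691 and 547 to 645 CPM, and aged replicate 1 has the highest neutrophil sum.

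The levels of the genes relative to each other were compared per kb of exon (CPM per kb), since longer transcripts collect more reads. In young Tregs, Npc2 was highest at 47.4 ± 4.01 (SD, n = 4), followed by Srebf2 at 29.7 ± 1.29 and Nr1h2 at 25.5 ± 1.02. Ebp at 17.7 ± 1.72 and Srebf1 at 15.9 ± 0.875 came next, and these neighbours overlapped within their spread. Mvd at 14.3 ± 2.07 was the most abundant mevalonate enzyme, above Pmvk at 9.97 ± 1.02 and Hmgcs1 at 6.51 ± 0.32. In aged Tregs, this order of the means was changed, with Pmvk at 13.2 ± 2.81 (SD, n = 3) above Mvd at 9.65 ± 1.26 and Hmgcs1 at 4.80 ± 0.696. The ranges of 1 SD around the aged means of Pmvk and Mvd overlapped, and the rise of Pmvk was not called. The 5 lowest sterol enzymes in young Tregs were Sqle at 2.77 ± 0.143, Msmo1 at 2.46 ± 0.175, Tm7sf2 at 1.32 ± 0.107, Lss at 1.30 ± 0.109 and Hsd17b7 at 1.07 ± 0.0976. The transcription factor gene Srebf2 was above Srebf1 at both ages (24.2 ± 3.64 and 16.2 ± 1.97 in aged Tregs). Nr1h2 exceeded Nr1h3, which was at 3.59 ± 0.913 in young and 3.55 ± 2.204 in aged Tregs. Exon length was taken over all annotated transcripts, so the level of genes with long alternative exons is understated.

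**Figure D5:**
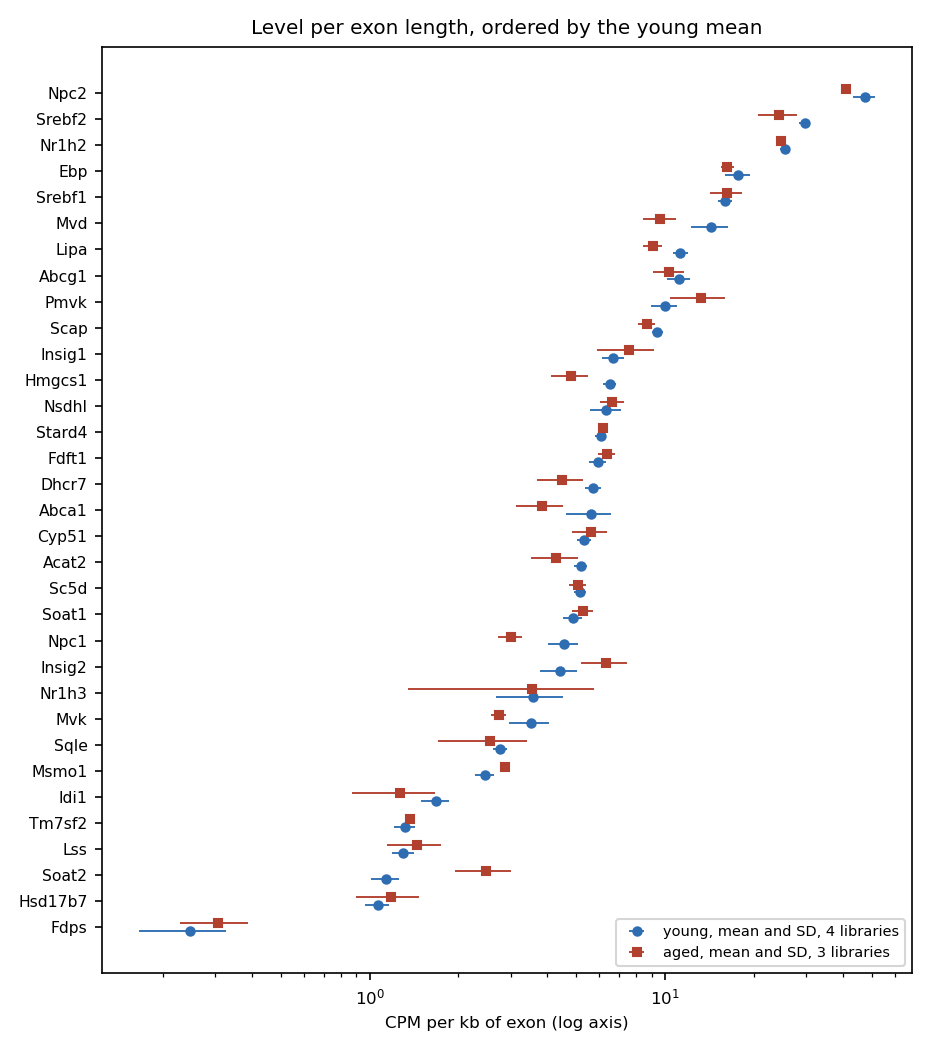
Mean level per kb of exon with SD (horizontal log axis) of the 33 genes in young (4 libraries) and aged (3 libraries) Tregs, ordered by the young mean. Npc2 is highest at 47.4 in young Tregs, Soat2 moves from 1.14 to 2.48, and Fdps is lowest.

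Other genes of sterol and lipid handling were then counted from a list of 59, of which 58 were found and 54 passed the filter. Of these, 10 were called (18.5%, beside 16.7% of all genes tested), 4 higher and 6 lower in aged Tregs, and the median log2 fold change was -0.16. Sterol transfer and storage held 4 of the called genes among 15. Gramd1b, which encodes an Aster protein that carries cholesterol from the plasma membrane to the endoplasmic reticulum, was at 189, 147 and 170 CPM in aged and 97.2, 98.5, 87.2 and 79.0 CPM in young libraries. No value was shared between the ages (log2 fold change 0.90, SE 0.12, adjusted p = 0.00261), and the call held in all 7 fits that left out a library. Gramd1b was also called in 8 of 9 other alternatives, with adjusted p-values up to 0.0553. The related Gramd1a had a log2 fold change of -0.27 (adjusted p = 0.17) and Gramd1c one of 0.60 (adjusted p = 0.0908). Stard5, a sterol-binding START protein, rose from 24.5 ± 1.68 to 36.5 ± 4.24 CPM (log2 fold change 0.58, adjusted p = 0.0138). Osbpl11, of the oxysterol-binding protein family, fell from 40.0 ± 1.63 to 24.2 ± 3.19 CPM (log2 fold change -0.72, adjusted p = 0.00517). Both were called in all 7 fits without a library, and Osbpl5 (log2 fold change 0.38, adjusted p = 0.0421) in 1 of them. Of 9 other alternatives, 8 called Stard5 and 8 called Osbpl11, with adjusted p-values up to 0.0939 and 0.0566, and 4 called Osbpl5.

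Gpr183, the receptor by which lymphocytes follow oxysterol gradients, showed the smallest adjusted p of this list. It was at 62.4, 63.7 and 66.8 CPM in aged and 33.6, 38.7, 33.3 and 36.6 CPM in young libraries, tightly grouped and far apart by age. The difference was 0.85 on the log2 scale (SE 0.089, adjusted p = 0.00114). The genes of enzymes that make its oxysterol ligand, Ch25h and Cyp7b1, were read at most 1 and 4 times in a library and were under the filter. Of the partners of LXR, the retinoid X receptor genes Rxra and Rxrb were lower, Rxra with a log2 fold change of -0.41 (adjusted p = 0.0449) and Rxrb with one of -0.34 (adjusted p = 0.0301). Rxra was called in 1 and Rxrb in 2 of the 7 fits without a library. Scarb1, a receptor for high-density lipoprotein, fell from 24.5 ± 3.65 to 15.4 ± 2.65 CPM (log2 fold change -0.67, adjusted p = 0.0293), and was called in 3 of those fits. Acss2 and Acly, which supply acetyl-CoA for lipid synthesis, were lower, with log2 fold changes of -0.52 (adjusted p = 0.0116) and -0.46 (adjusted p = 0.0267). Acss2 was called in all 7 fits that left out a library and Acly in 2 of them. Of 9 other alternatives, 8 called Acss2 and 7 called Acly, with adjusted p-values up to 0.106 and 0.143.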

How the data were processed

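For 7 libraries the authors deposited raw counts of reads per Ensembl gene (mm10 per the labels), in the layout of HTSeq-count without strand. The aligner and annotation are not given in the sources used here. The cDNA (SMART-Seq) carries no molecular identifiers. A series table, used for gene symbols, holds a deposited signal that equals the count over 1 size factor per library (within 0.1%), and fold changes and p-values of the authors, which were not used. The study's methods name limma for differential expression and a young age of 10 weeks, and the labels give 8 weeks.

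Lines naming no gene were left out. Aged and young libraries were tested in edgeR 4.0.16 (R 4.3.3) by quasi-likelihood with TMM factors, filterByExpr by group and no covariate. Two-sided p-values were adjusted by Benjamini-Hochberg over 13904 genes, and called means an adjusted p under 0.05. The standard error (SE) divides the estimate by the root of F, and 95% intervals use the same degrees of freedom. Within an age, every pair of libraries varied beyond sampling noise (chi-square per degree of freedom 8.88 to 185). The detection floor of 3 counts is 0.22 to 0.279 CPM and covers counting error only. Coordinates and exons are from GENCODE M21 (GRCm38). The tests were tried on simulated counts with known changes.

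Alternatives were DESeq2 1.42.0, limma 3.58.1 (voom), RLE factors, library size only, mitochondrial, immunoglobulin and haemoglobin genes left out, no filter, at least 10 counts in every library, the replicate number as a block, GC and length trends removed, each library left out, and a minimum absolute log2 fold change of 1. All members are named, as are the called genes among the other pathway genes (at most 6 each way) and Foxp3, Il2ra, Cd4 and Cd3e. Other genes were named after their values were seen. Members and lists were chosen with earlier results of these data known.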

Additional observations from a re-analysis of the deposited data

Results flagged for a closer look

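Lipa in young replicate 3 was at 69.9 CPM, apart from the other young libraries at 78.2 to 79.3 CPM. The gap made up 0.89 of the range of the 4 young values, above the 95% limit of Dixon's test for 4 values (0.829). About 1 in 20 groups would pass this limit by chance, and the young values of 33 genes were looked at. Without young replicate 3 the log2 fold change of Lipa was -0.35 (adjusted p = 0.0676), and with it -0.31 (adjusted p = 0.0511).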

How the results depend on the processing

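The number of members called, 4 of 33 in the comparison reported, was 0 with the replicate block, 1 when calls also had to reach 1 in absolute log2 fold change, and 3 to 6 in the other 8 alternatives that kept all libraries. With 1 library left out it ran from 1 (without aged replicate 3) to 7 (without aged replicate 1). Over all genes, 292 were called with the replicate block, and 1237 (without young replicate 4) to 3058 (without aged replicate 1) with a library left out, against 2327. The replicate block rests on numbers that do not pair the samples, since libraries with the same number deviated with correlations of -0.0915, -0.292 and -0.138 across genes. Under it the adjusted p was 0.138 for Hmgcs1, 0.131 for Mvd, 0.0851 for Soat2 and 0.064 for Npc1. The members' median log2 fold change of -0.03 was -0.0934 with library size only, a setting that also lowered the median of all genes from 0.02 to -0.05, and ran from -0.0744 to 0.0339 with a library left out. Values of the members near 0 changed sign. For Srebf1 the log2 fold change was -0.00053 with DESeq2, -0.0414 with library size only and -0.00035 with no filter on low counts. Library size only turned Tm7sf2 to -0.0082 and Stard4 to -0.0401. Removal of GC content and length trends turned Cyp51 to -0.0111, Nsdhl to -0.0685 and Stard4 to -0.0298. With a library left out, the log2 fold change ran from -0.42 to 0.0637 for Sqle, from -0.0299 to 0.245 for Lss, from -0.0273 to 0.171 for Cyp51, from -0.0602 to 0.279 for Hsd17b7, from -0.0744 to 0.0241 for Sc5d, from -0.0863 to 0.0772 for Srebf1 and from -0.625 to 0.316 for Nr1h3. None of these genes was called in any of these settings, and the cause was not tested. Of the members' values over the alternatives other than the required log2 fold change, 479 kept direction and side of the threshold, 11 gained a call, 20 lost one and 18 changed sign. The precision of the Fdps values is limited by counts of 10 to 19 in a library, and why they are low was not tested.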

Other observations

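The isoprenoid branch, which uses mevalonate products for prenylation, dolichol and ubiquinone, held 10 tested genes. None was called by edgeR, DESeq2 or limma voom, none had an unadjusted p under 0.05, and the median log2 fold change was -0.11. Ggps1, the geranylgeranyl diphosphate synthase, was at 29.8, 41.1 and 34.5 CPM in aged and 34.3, 30.6, 35.1 and 31.0 CPM in young libraries, so the ages overlapped (log2 fold change 0.10, adjusted p = 0.626). Of 10 tested fatty acid genes under SREBP, 2 were lower (Acly and Acss2) and none was higher, beside 6.94% of all genes tested that were lower. Their median log2 fold change was -0.33 and 9 of the 10 were below 0. Fasn, the fatty acid synthase, was at 169, 127 and 119 CPM in aged and 192, 167, 180 and 187 CPM in young libraries. Aged replicate 1 lay within the young range and the other aged libraries below it (log2 fold change -0.39, adjusted p = 0.0829). Acaca, which makes malonyl-CoA, showed the same layout with 38.1, 27.9 and 25.6 CPM against 48.3, 37.3, 41.3 and 40.9 CPM (log2 fold change -0.46, adjusted p = 0.0821). Fads1, a desaturase, was the exception in sign, with a log2 fold change of 0.48 (adjusted p = 0.149).

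Aged replicate 1 was the highest of the aged libraries in 17 of the 33 members, among them 4 of the 7 mevalonate and 6 of the 11 sterol enzymes.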
